A study of Mus musculus with 6 samples.

Results

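The genes described here are those of 1 chemokine axis in the mouse aorta, 8 of the 18191 genes in the table: the 6 copies of Ccl21 (Ccl21a, Ccl21b, Ccl21c, Ccl21d, Gm13304 and Gm10591), the related ligand Ccl19, and Ccr7, the receptor that both ligands share. They were chosen by their counts in this comparison, since 4 of the copies carried identical counts and were among the genes called between the genotypes by DESeq2 in an earlier analysis of the same table. Values of the 8 genes between genotypes are therefore given as a description, and no p-value is given for them. The main quantity is the total over the 6 Ccl21 copies. It adds the 4 rows with identical counts, since RSEM, which made the estimates, divides a read that fits several copies among them, and values with these rows counted once or left out are given beside it. The study sequenced RNA of the whole aorta of male mice, in 3 libraries of WT mice and 3 libraries of Npr1+/- mice, in which CRISPR-Cas9 had disrupted 1 of the 2 alleles of Npr1, the receptor of atrial and brain natriuretic peptide. The disruption is in the germ line, so that no cell type is singled out by it. Neither treatment nor age is given for the mice in the labels, and the libraries are numbered within each genotype. Values given library by library follow the numbers 1 to 3.

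Ccl21 and Ccl19 are homeostatic chemokines, made without an inflammatory stimulus, and both bind the G protein coupled receptor CCR7. Ccl21 is known as a product of lymphatic endothelial cells, of high endothelial venules and of the stromal cells of lymph nodes, where a long basic tail holds it on the cell surface and matrix; Ccl19 lacks this tail and comes mainly from lymphoid stromal cells and mature dendritic cells. CCR7 is carried by naive T cells, central memory T cells and mature dendritic cells, which follow the ligands into lymphatic vessels and lymph nodes. The mouse genome holds several copies of Ccl21. That of Ccl21a is known as the Ccl21-Ser form of lymphoid organs, and the others as Ccl21-Leu, the form of lymphatic vessels in other tissues. In an aorta taken whole, lymphatic vessels and immune cells can come with the adventitia and the surrounding fat.

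The copies lie in duplicated DNA on chromosome 4. In the annotation of GRCm38 (GENCODE M21), Ccl21d is at chr4:41903610-41904743, Gm13304 at chr4:42114817-42115917, Ccl21b at chr4:42255767-42256432 and Gm10591 at chr4:42612195-42612860, all on the plus strand, and Ccl21a is at chr4:42772860-42773993 on the minus strand. Ccl21c is annotated on a scaffold that is not placed on the chromosome, and its sequence was not used here. Ccl19 is next to Ccl21a, at chr4:42754525-42756577 on the minus strand, and Ccr7 is at chr11:99144196-99155077 on the minus strand. The coding sequence of Ccl21a is 402 bases long, and it differed from those of Ccl21b, Ccl21d, Gm13304 and Gm10591 at 2 bases, T84A in exon 2 and C194T in exon 3 (the base of Ccl21a first, positions counted from 1 at the A of the start codon). In Ccl21a these bases are at position 42773747 and at position 42773543 of chromosome 4. The other 4 copies were 100% identical to each other over the coding sequence. The coding bases 61 to 219, which hold both differences, are shown because only reads over these bases separate Ccl21a from the other copies within the coding sequence, with the differing bases in capitals.
Ccl21a: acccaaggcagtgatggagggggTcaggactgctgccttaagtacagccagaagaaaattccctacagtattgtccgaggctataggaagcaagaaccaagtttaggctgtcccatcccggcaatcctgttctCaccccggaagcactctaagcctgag
Ccl21b: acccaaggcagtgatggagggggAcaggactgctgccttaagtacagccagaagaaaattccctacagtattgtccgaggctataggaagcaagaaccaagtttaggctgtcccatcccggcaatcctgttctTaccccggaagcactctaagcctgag
The same stretch of Ccl21d, Gm13304 and Gm10591 was identical to that of Ccl21b. Over the whole annotated transcript of 870 bases, Ccl21a and Ccl21d differed at 6 bases, and the 837 bases of Gm13304 were identical to Ccl21d.

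The sequences before the start sites were as close. Of 249 bases before the RefSeq start, Ccl21a differed from Ccl21d at 1 base and from Gm13304 and Gm10591 at 2 bases each. The last 120 aligned bases of Ccl21a (chr4:42773992-42774111, minus strand, GRCm38.p6) and Ccl21d (chr4:41903492-41903611, plus strand) are shown because copies with different estimated counts carry nearly the same promoter, with the differing base in capitals.
Ccl21a: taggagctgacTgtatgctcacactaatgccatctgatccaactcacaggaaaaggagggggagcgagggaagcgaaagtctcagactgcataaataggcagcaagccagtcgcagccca
Ccl21d: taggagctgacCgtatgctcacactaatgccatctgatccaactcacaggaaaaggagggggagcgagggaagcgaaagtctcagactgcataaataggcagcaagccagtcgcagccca
For Ccl21b the RefSeq table places the start elsewhere, after base 42173119 of chromosome 4. The 250 bases before that start had 78.0% G and C, against 52.8% in Ccl21a, and the longest stretch aligned to the Ccl21a promoter was 15 bases. GENCODE M21 begins Ccl21b at base 42255767 instead, and the bases before that position were not compared.

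The depth was similar among libraries, with 13510970 to 16664343 estimated counts each, so that 3 counts, the floor used here, were between 0.180 and 0.222 CPM, that is, counts scaled to the size of the library. The FPKM of Npr1 was 112, 153 and 152 in WT libraries, against 70.4, 110 and 133 in Npr1+/- libraries, so that the groups overlapped, with a ratio of the mean normalized CPM of 0.748. The libraries numbered 1 stood apart from the other 4. The summed CPM of 8 genes of perivascular fat was 7737 in WT 1 and 11445 in Npr1+/- 1, and between 1338 and 3479 in the others. The summed CPM of 8 genes of sympathetic neurons was 395 in Npr1+/- 1 and between 6.19 and 12.1 in the others. Values of the Ccl21 total are therefore also given with each of these libraries left out in turn. Each such fit keeps the other library numbered 1, and no fit was made without both. In whole tissue, more cells of a type and more RNA per cell cannot be told apart.

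The Ccl21 total was higher in each Npr1+/- library than in any WT library, which rested on the 4 rows with identical counts. Its FPKM was 53.4, 44.3 and 18.1 in WT libraries, against 79.4, 60.4 and 57.2 in Npr1+/- libraries. The estimated counts behind these values were 602, 587 and 252 in WT and 964, 812 and 733 in Npr1+/- aortas. WT 3 was the lowest library by far, with WT 1 at 2.94-fold its normalized CPM, while the 3 Npr1+/- libraries lay within 1.52-fold of each other. In normalized CPM the mean was 32.1 ± 15.2 in WT against 55.6 ± 12.6 in Npr1+/- aortas (SD, n = 3 each), a ratio of 1.73. The gap between the groups was narrow, since the lowest Npr1+/- library was 1.02-fold the highest WT library. The log2 fold change from the edgeR fit was 0.79 with a standard error of 0.39. By replicate number, the ratio of Npr1+/- to WT was 1.55, 1.42 and 3.00 for the numbers 1 to 3. The largest of these ratios is that of WT 3, and without that library the log2 fold change was 0.46. It was 1.10 without WT 1 and 0.60 without Npr1+/- 1.

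Without the 4 identical rows the groups overlapped. The sum of Ccl21a and Ccl21b alone was 53.4, 44.3 and 18.1 FPKM in WT libraries, against 73.4, 44.0 and 51.8 in Npr1+/- libraries, so that WT 1 was above both Npr1+/- 2 and Npr1+/- 3. Its log2 fold change was 0.57. With the identical rows counted once, the normalized CPM of the total was 44.9, 36.2 and 15.3 in WT and 65.8, 40.8 and 42.6 in Npr1+/- aortas, again with WT 1 above Npr1+/- 2 and 3, and the log2 fold change was 0.63. Both of these ways of counting were chosen after the data were seen.

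**Figure D1:**
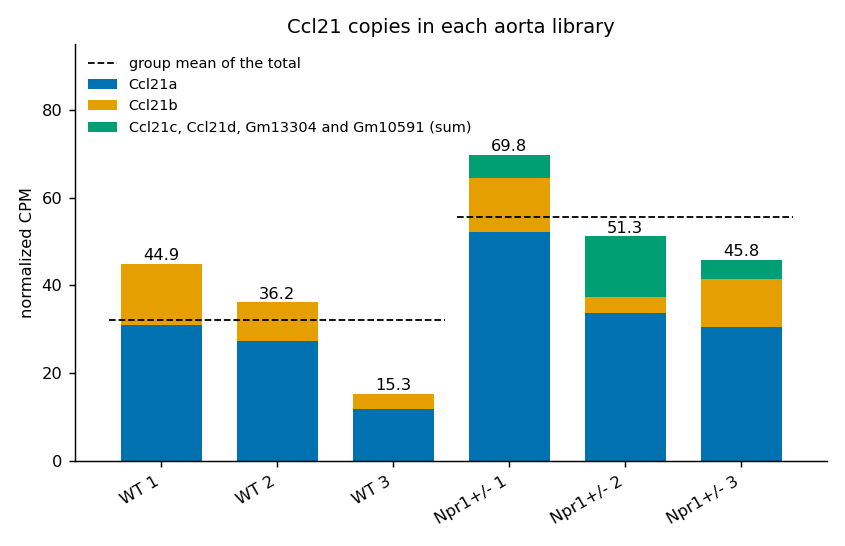
Normalized CPM of the Ccl21 copies in each library, stacked by Ccl21a, Ccl21b and the sum of the 4 copies with identical counts; the number above a bar is the total and dashed lines are the group means (32.1 in WT, 55.6 in Npr1+/-, n = 3 each). The 4 identical copies (top segment) are at 0 in the 3 WT libraries, and most of every bar is Ccl21a.

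Ccl21a, the copy known from lymphoid organs, took most of the counts in every library. Its estimated counts were 416, 446 and 194 in WT libraries, against 720, 536 and 488 in Npr1+/- libraries, which is 69.1%, 75.9% and 77.1% of the Ccl21 total in WT and 74.7%, 66.0% and 66.5% in Npr1+/- aortas. In normalized CPM it was 23.4 ± 10.2 in WT against 38.8 ± 11.6 in Npr1+/- aortas (SD, n = 3 each), and the groups overlapped, since Npr1+/- 3 (30.5) was just under WT 1 (31.0). Ccl21b had estimated counts of 186, 141 and 57.5 in WT libraries, against 170, 56.1 and 176 in Npr1+/- libraries. The groups overlapped fully, with normalized CPM of 8.69 ± 5.19 in WT against 8.95 ± 4.73 in Npr1+/- aortas (SD, n = 3 each).

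The other 4 copies, Ccl21c, Ccl21d, Gm13304 and Gm10591, carried the same estimated counts in every library. Each of them had 0 counts in the 3 WT libraries and 18.5, 55.0 and 17.5 counts in Npr1+/- libraries, so that the groups did not overlap. Against a floor of 3 counts in each WT library, the estimate of 1 such row was at least 9.998-fold higher in Npr1+/- aortas. It was at least 6.18-fold higher without Npr1+/- 2, the library with the highest value. The floor covers counting error and not the division of reads among copies, so that it sets no bound on the expression of a copy. The difference in these rows was also the contrast by which the genes were chosen, so that a call of these rows was fixed by the choice and nothing is read from it. With the copies as separate rows, as deposited, DESeq2 called 16 genes at the study's thresholds (adjusted p under 0.05, log2 fold change of 0.5 or more in size), which is 0.0942% of the genes it adjusted, and 4 of the 16 were these rows. With the 6 copies summed before the same fit, DESeq2 called 11 genes (0.0648%), and the Ccl21 total was not among them. The paper reported far more genes at these thresholds from its own DESeq2 run, and the reason for the gap was not examined.

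Within Npr1+/- aortas, the normalized CPM of the identical rows differed 3.17-fold between the lowest and the highest library, and the sum of the 5 copies other than Ccl21a differed 1.15-fold. In Npr1+/- 2, where the 4 identical rows were highest and made up 27.1% of the Ccl21 total, Ccl21b was at its lowest share, 6.91%. In Npr1+/- 1 and 3, the 4 rows made up 7.67% and 9.56%, and Ccl21b 17.6% and 23.9%. Ccl21b, Ccl21d, Gm13304 and Gm10591 share 1 coding sequence, and that of Ccl21c was not compared. The sum of the 5 rows other than Ccl21a was 186, 141 and 57.5 counts in WT 1 to 3, where all of it was Ccl21b, and 244, 276 and 246 in Npr1+/- libraries. The Npr1+/- values lay close together, at 16.8 ± 1.27 normalized CPM (SD, n = 3), and above the 8.69 ± 5.19 (SD, n = 3) of WT without overlap, and the lowest was 1.11-fold the highest WT value. With the identical rows counted once, the sum was 13.7, 7.02 and 12.1 normalized CPM in Npr1+/- libraries, all below the 13.9 of WT 1. The ratio of the means was 1.94 with all 4 identical rows and 1.26 with these rows counted once, against 1.66 for Ccl21a. As a share of the Ccl21 total, the 5 copies made up 30.9%, 24.1% and 22.9% in WT and 25.3%, 34.0% and 33.5% in Npr1+/- aortas, so that the shares overlapped.

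Among the members, the total over the Ccl21 copies, the sum of the 5 copies and the 4 identical rows did not overlap between genotypes, and Ccl21a, Ccl21b, Ccl19 and Ccr7 did. Both sums overlapped once the identical rows were counted once. Of all 13933 genes tested, 3.66% were higher in every Npr1+/- library than in every WT library and 3.88% were lower. As the members were chosen from this contrast, nothing is read from their count. As separate rows, 7 of the 8 members passed the filter on low counts, all except Ccr7, and the 4 identical rows passed it through the Npr1+/- libraries alone.

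The Ccl21 total was among the more abundant transcripts of the aorta per unit of length. In FPKM, between 90.6% and 94.6% of the genes were below it in 5 libraries, and 77.5% in WT 3. Per length, Ccl21a had the highest mean of the separate rows, with 27.8 ± 12.2 FPKM in WT against 45.4 ± 11.7 in Npr1+/- aortas (SD, n = 3 each). Ccl21b followed with 10.8 ± 6.37 (SD, n = 3) and 11.03 ± 5.79 (SD, n = 3), which was below Ccl21a in every library; across libraries their ranges overlapped in WT and not in Npr1+/- aortas. Ccl19 came next with 4.28 ± 3.19 (SD, n = 3) and 6.003 ± 4.73 (SD, n = 3), and its range overlapped that of Ccl21b in both genotypes. Each identical row was at 0 in WT and at 2.31 ± 1.53 (SD, n = 3) in Npr1+/- aortas, within the range of Ccl19 there. Ccr7 had 0.170 ± 0.175 in WT against 0.150 ± 0.151 in Npr1+/- aortas (SD, n = 3 each), under every library of Ccl21a, Ccl21b and Ccl19.

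The row of Ccl19, the second ligand, did not follow the Ccl21 total. Its estimated counts were 64.9, 57.5 and 8.49 in WT libraries, against 6.88, 84.6 and 103 in Npr1+/- libraries. The lowest library was an Npr1+/- library, the one with the highest Ccl21 total, and the highest was an Npr1+/- library too, so that the groups overlapped fully. The log2 fold change was 0.48 with a standard error of 1.00, and it ranged from -0.03 without WT 3 to 1.03 without WT 1. By replicate number, the ratio of Npr1+/- to WT in normalized CPM was 0.103, 1.51 and 12.5. These ratios go in both directions.

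Ccl19 also has related sequences in the table. The aligned 325 coding bases of Ccl19 were identical in Gm2564 and differed at 3 bases in the pseudogene Ccl19-ps1, while Ccl19 shared no aligned stretch longer than 11 bases with the Ccl21a coding sequence. Gm2457 had the same counts as Gm2564 in every library, between 59.0 and 106 each. Gm2023 had between 44.1 and 94.5 counts, and Ccl19-ps1 had 75.0 counts in Npr1+/- 3 and 0 in the other 5 libraries. The sequences of Gm2023 and Gm2457 were not compared with that of Ccl19. Which rows are counted with Ccl19 was decided after their values were seen. Summed with Gm2023, Ccl19 had 134, 139 and 96.7 counts in WT libraries, against 101, 129 and 198 in Npr1+/- libraries, with a log2 fold change of 0.19 (standard error 0.29). Summed with all 4 rows, it had 347, 264 and 215 counts in WT and 275, 266 and 456 in Npr1+/- aortas, with a log2 fold change of 0.24 (standard error 0.31). In both sums the groups overlapped, and the spread between libraries was much smaller than that of Ccl19 alone. Both sums were lowest in WT 3, as the Ccl21 total was, but highest in Npr1+/- 3. The Ccl19 row made up 48.4%, 41.3% and 8.78% of its sum with Gm2023 in WT libraries. In Npr1+/- libraries it made up 6.79%, 65.7% and 52.3%. How reads were divided among these rows was not tested.

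**Figure D2:**
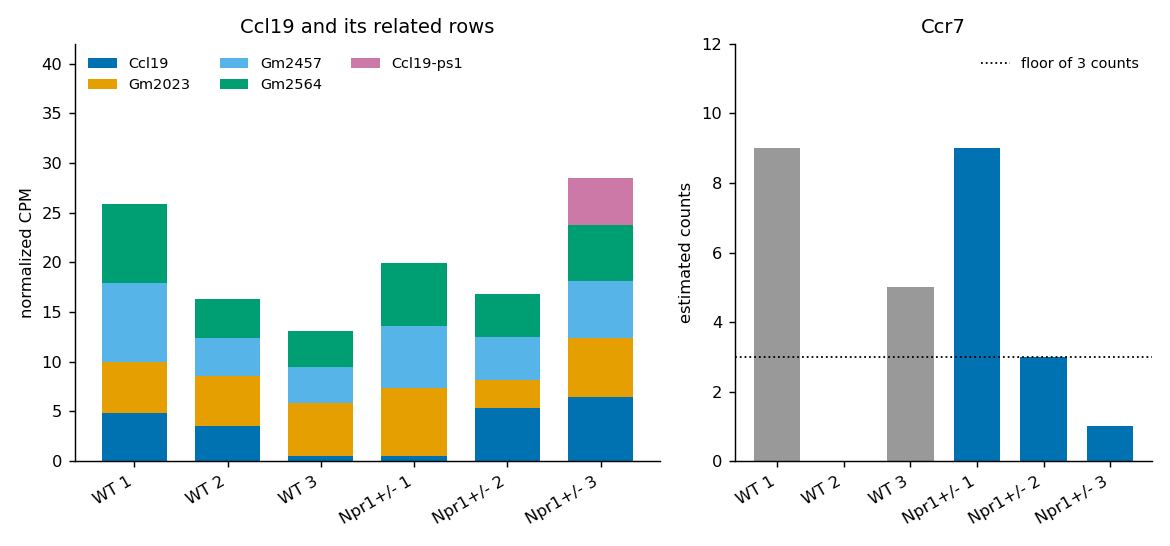
Left, normalized CPM of Ccl19 and 4 related rows in each library, stacked; right, estimated counts of Ccr7 in each library (WT grey, Npr1+/- blue) with the floor of 3 counts as a dotted line. Ccl19 alone (lowest segment) is near 0.5 CPM in WT 3 and Npr1+/- 1, and Ccr7 does not exceed 9 counts in any library.

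Ccr7, the receptor, was near the limit of detection. It had 9, 0 and 5 counts in WT libraries, against 9, 3 and 1 counts in Npr1+/- libraries. Only WT 1, WT 3 and Npr1+/- 1 were above 3 counts, and the sums over the groups were 14 and 13 counts. Its counts were too low for edgeR's filter, so that a difference between genotypes was not detectable at this depth. The difference of the mean log2 CPM was 0.03, and it ranged from -0.70 to 0.61 when single libraries were left out.

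The other genes of the axis were described from a list of 11 partners of CCR7, all of which were measured and tested. Of these, 5 had a positive and 6 a negative log2 fold change, with a median of -0.01, against 0.00 for all genes tested. With edgeR's quasi-likelihood test 0 of the 11 were called at an adjusted p under 0.05, as was the case for all 13933 genes (0.0%), and 0 had an unadjusted p under 0.05 (418 or 3.0% of all genes). Gnai2, the G protein subunit through which CCR7 signals, had the highest level of the list, with 305 ± 27.7 FPKM in WT against 279 ± 53.2 in Npr1+/- aortas (SD, n = 3 each). Ackr4, the decoy receptor that removes both ligands, was named after its values were seen. Its FPKM was 0.20, 0.43 and 0.72 in WT libraries, against 2.33, 0.50 and 0.50 in Npr1+/- libraries. The groups overlapped, and the one high value was in Npr1+/- 1. The Ccl21 total was above Ackr4 and Ccr7 in FPKM in all 6 libraries.

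Of 18 measured homeostatic chemokines and receptors other than the members, 10 were tested, and 6 of them had a positive log2 fold change (median 0.15). Cxcl12, the chemokine of stromal and perivascular cells, had the highest level with 77.9 ± 9.43 FPKM in WT against 73.1 ± 8.70 in Npr1+/- aortas (SD, n = 3 each). Cxcl13, which draws B cells into follicles and was named after its values were seen, was at 4.52, 2.92 and 0.26 FPKM in WT libraries, against 6.52, 1.91 and 0.68 in Npr1+/- libraries, lowest in WT 3 like the Ccl21 total but with overlapping groups.

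The genes next to the copies give the same region without the members. Of 18 such genes 16 were tested, and 13 had a positive log2 fold change, with a median of 0.15 and 0 at an unadjusted p under 0.05 by edgeR. None of the 16 was higher or lower in all Npr1+/- libraries without overlap. Il11ra1, an interleukin receptor gene that is also duplicated here, had the highest level with 142 ± 14.4 FPKM in WT against 112 ± 40.7 in Npr1+/- aortas (SD, n = 3 each), in the other direction from the Ccl21 total. Gm13306, another duplicated gene here, named after its values were seen, had 0, 1.25 and 0 FPKM in WT libraries, against 0.77, 4.84 and 1.48 in Npr1+/- libraries. Like the 4 identical Ccl21 rows, it was highest in Npr1+/- 2, but WT 2 was above Npr1+/- 1.

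Lymphotoxin signals through the lymphotoxin beta receptor and non-canonical NF-kB, the route that is known to induce Ccl21 and Ccl19 in lymphoid stroma. The list of 14 genes was wider than this route, as it also held Tnf, Tnfrsf1a, Tnfsf11, Tnfrsf11a and Il7. Of the 14 genes 9 were tested, 4 with a positive and 5 with a negative log2 fold change (median -0.03). The lymphotoxin ligands were nearly absent, with Lta at most 0.18 FPKM and Ltb between 0.17 and 1.73, and both failed the filter on low counts. Tnfrsf1a, a receptor of tumor necrosis factor and lymphotoxin alpha, was the highest, at 53.0 ± 5.12 FPKM in WT against 57.0 ± 3.93 in Npr1+/- aortas (SD, n = 3 each). Relb, the NF-kB subunit of this route, was at 13.2, 12.9 and 11.6 FPKM in WT libraries, against 10.1, 10.8 and 10.9 in Npr1+/- libraries. It was lower in all Npr1+/- libraries, with a log2 fold change of -0.22 (standard error 0.11, unadjusted p = 0.0945, adjusted p = 0.9996 by edgeR's quasi-likelihood test), so that it was not called.

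The cells that make Ccl21 in other tissues were looked for by their markers. Of 10 markers of lymphatic endothelium, all were above 0 in at least 1 library and 9 were tested, 6 with a positive and 3 with a negative log2 fold change (median 0.41, 0 of 9 at an unadjusted p under 0.05 by edgeR). Libraries were also paired by the labels' numbers in the fit, though the values do not tell the numbers 2 and 3 apart. In that fit 4 of the 9 had an unadjusted p under 0.05 by edgeR, where 12.3% of all genes did, and 0 were called after adjustment. By edgeR's quasi-likelihood test these were Flt4 (unadjusted p = 0.00431, adjusted p = 0.189), Mmrn1 (unadjusted p = 0.0114, adjusted p = 0.256), Tbx1 (unadjusted p = 0.0273, adjusted p = 0.335) and Itga9 (unadjusted p = 0.00542, adjusted p = 0.202). In all 3 pairs the value of Flt4, Mmrn1 and Tbx1 was higher in the Npr1+/- library and that of Itga9 was lower. Their summed CPM lay between 681 and 1038 in WT and between 497 and 847 in Npr1+/- aortas, but most of it was Itga9, an integrin subunit that was at 120 ± 35.3 FPKM in WT against 81.8 ± 34.2 in Npr1+/- aortas (SD, n = 3 each) and is not limited to lymphatic vessels. Of the markers that define this cell type, Prox1, its transcription factor, was at 0.14, 0.21 and 0.05 FPKM in WT libraries, against 0.81, 0.12 and 0.33 in Npr1+/- libraries. Flt4, the receptor of the lymphatic growth factor VEGF-C, was at 3.27, 2.30 and 1.95 FPKM in WT and at 5.60, 3.41 and 2.61 in Npr1+/- aortas. Mmrn1 was at 4.46, 2.64 and 1.31 FPKM in WT and at 7.09, 2.93 and 3.89 in Npr1+/- aortas. Lyve1, a hyaluronan receptor of lymphatic endothelium and of some macrophages, was at 29.1, 12.7 and 7.38 FPKM in WT and at 21.7, 12.6 and 16.3 in Npr1+/- aortas. These 4 genes were named after their values were seen. All 4 were lowest in WT 3, as the Ccl21 total was, and Prox1, Flt4 and Mmrn1 were highest in Npr1+/- 1, as it was, while each overlapped between the genotypes. Reln and Tbx1, also compared after their values were seen, were lowest in WT 3 and highest in Npr1+/- 1 too. Pdpn was lowest in WT 3 and highest in WT 1. Foxc2 and Itga9 did not share this order. Foxc2, a transcription factor of lymphatic valves and of other vascular cells, was at 21.6, 43.6 and 41.9 FPKM in WT libraries, against 17.4, 40.2 and 36.7 in Npr1+/- libraries. Like Itga9, it was lowest in Npr1+/- 1 and high in WT 3. Stab2, the 1 marker not tested, was at most 0.05 FPKM, its value in WT 3. This order was not particular to lymphatic markers. The summed CPM of the T cell, B cell, dendritic cell and thymus markers was also lowest in WT 3 and highest in Npr1+/- 1. For T cells these sums were 6.58 and 20.4, and for dendritic cells 265 and 516. The sum of lymphoid stroma was lowest in Npr1+/- 3, and that of macrophages was highest in WT 1. The part of lymphatic vessels in the Ccl21 values was not tested.

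**Figure D3:**
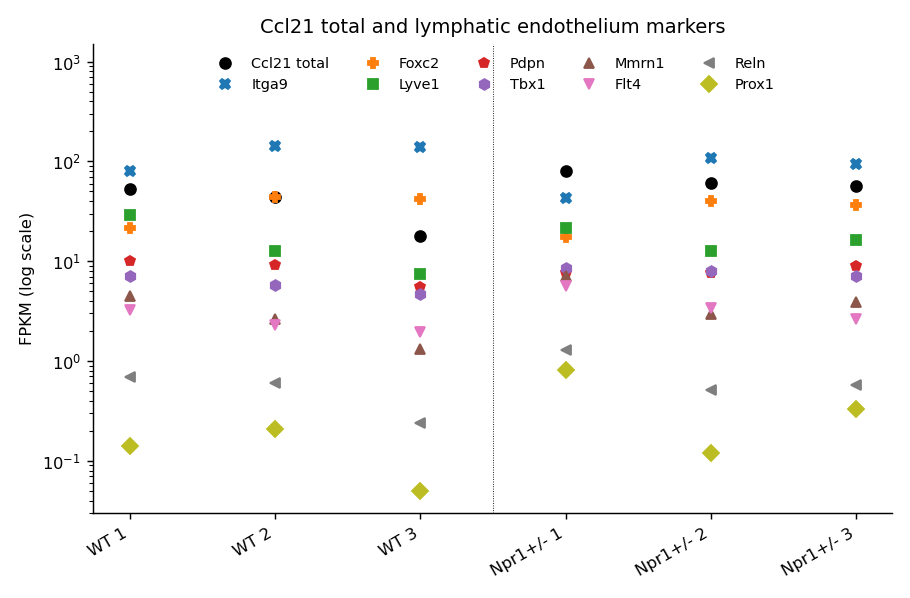
FPKM on a log scale of the Ccl21 total and of the 9 tested markers of lymphatic endothelium in each library (1 point per gene and library, WT left and Npr1+/- right of the dotted line). The Ccl21 total is lowest in WT 3, as are Lyve1, Pdpn, Tbx1, Mmrn1, Flt4, Reln and Prox1, while Itga9 and Foxc2 are lowest in Npr1+/- 1.

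Markers of lymphoid stroma, lymphocytes and thymus were measured as well. Of 8 measured markers of lymphoid stroma and high endothelial venules 4 were tested, 3 with a positive log2 fold change (median 0.46), and their summed CPM lay between 50.6 and 113 in WT and between 47.6 and 166 in Npr1+/- aortas. Most of it was Enpp2, the lysophospholipase of high endothelial venules and of fat, with 17.5 ± 10.4 FPKM (SD, n = 3) and 22.9 ± 17.8 (SD, n = 3). Chst4, the sulfotransferase that marks these venules, reached at most 0.18 FPKM. The 16 T cell markers summed to between 6.58 and 14.2 CPM in WT and between 7.90 and 20.4 CPM in Npr1+/- aortas, and 3 of them were tested (median 0.18). None of them exceeded 1.93 FPKM, the value of Cd247 in Npr1+/- 1. Of the 10 B cell markers 4 were tested (median 0.27), and they summed to between 3.97 and 9.36 CPM over the 6 libraries. The 7 measured thymus markers, included because the thymus makes Ccl21a and lies near the aortic arch, had 3 tested genes (median 0.38), of which Cd1d1, also made outside the thymus, was by far the highest, while the developing T cell genes Rag1 and Dntt were at most 0.07 FPKM. Other genes of the list were detected in every library, with Rag2 between 0.28 and 0.50 FPKM, Ptcra between 0.33 and 0.83, and Psmb11, a proteasome subunit of thymic epithelium, between 0.59 and 1.5.

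Dendritic cells, which carry CCR7 when mature and make Ccl19, had 15 of 16 markers tested, 10 of them with a positive log2 fold change (median 0.11). Their summed CPM, most of it from class II genes such as Cd74 (112 ± 45.0 FPKM in WT and 118 ± 53.4 in Npr1+/- aortas, SD, n = 3), lay between 265 and 431 in WT and between 268 and 516 in Npr1+/- aortas. Flt3, the growth factor receptor of dendritic cell precursors, was at 0.30, 0.22 and 0.18 FPKM in WT libraries, against 0.48, 0.45 and 0.39 in Npr1+/- libraries. The groups did not overlap, with a log2 fold change of 0.94 (standard error 0.35, unadjusted p = 0.0340, adjusted p = 0.9996 by edgeR's quasi-likelihood test), so that it was not called. Zbtb46, a factor of conventional dendritic cells and endothelium, was at 6.65, 6.06 and 6.04 FPKM in WT and at 7.22, 6.38 and 7.22 in Npr1+/- aortas. Its groups overlapped in FPKM but not in normalized CPM (log2 fold change 0.22, standard error 0.12). Macrophage markers summed to between 300 and 404 CPM in WT and between 307 and 337 CPM in Npr1+/- aortas, with 2 of 8 positive (median -0.11), and C1qa was their highest, at 57.6 ± 26.8 FPKM (SD, n = 3) and 53.2 ± 8.29 (SD, n = 3).

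Markers of the other tissues in the preparations are given beside the Ccl21 total, since the values of several differed between the groups as well. All 8 genes of perivascular fat had a positive log2 fold change (median 0.77), with Fabp4 at 2922 ± 2670 FPKM in WT against 5021 ± 3581 in Npr1+/- aortas (SD, n = 3 each), and Retn, the gene of an adipocyte hormone, was the 1 gene of this list at an unadjusted p under 0.05 (log2 fold change 1.81, standard error 0.67, unadjusted p = 0.0332, adjusted p = 0.9996 by edgeR). All 8 endothelial genes were positive too (median 0.65). The largest change was that of Nos3, the endothelial nitric oxide synthase, with 13.0 ± 2.20 FPKM in WT against 29.7 ± 3.68 in Npr1+/- aortas (SD, n = 3 each) (log2 fold change 1.19, standard error 0.20, unadjusted p = 0.000658, adjusted p = 0.9996 by edgeR), and Pecam1, Vwf, Tie1 and Emcn had log2 fold changes of 0.62, 0.90, 0.69 and 0.98 with unadjusted p of 0.0472, 0.0262, 0.0529 and 0.0416 by edgeR. The endothelial sum lay between 508 and 869 CPM in WT and between 957 and 1518 CPM in Npr1+/- aortas without overlap. This sum and that of perivascular fat were highest in Npr1+/- 1, as the Ccl21 total was. Both sums were lowest in WT 2, while the Ccl21 total was lowest in WT 3. All 6 smooth muscle genes were negative (median -0.28, with Acta2 at -0.15), and 6 of 8 genes of adventitial fibroblasts were negative (median -0.16, with Dcn at -0.09 and Col1a1 at -0.63, the latter without overlap). Of 8 sympathetic neuron genes 3 were tested (median 3.32), and all 8 were dominated by Npr1+/- 1, where Dbh was at 56.2 FPKM, Prph at 28.2 and Stmn2 at 32.4, against at most 0.25, 0.63 and 4.88 in the other libraries. The part of these differences in the Ccl21 values was not tested.

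Over all 16 lists, 174 of 178 genes were measured and 125 tested, and 0 were called by edgeR. At an unadjusted p under 0.05 there were 8 genes, all higher in Npr1+/- aortas, or 6.4% of the 125 against 3.0% of all genes tested. With the replicate block these were 25 higher and 3 lower, or 22.4% against 12.3% of all genes, and 6 of 8 genes of perivascular fat and 6 of 8 of endothelium were among the higher ones. The lowest adjusted p of a listed gene with the block was 0.0703 by edgeR. Of the 125, 5.6% were higher and 1.6% lower without overlap, against 3.66% and 3.88% of all genes. The lists were drawn up with earlier results of these data known, and no test was made of a list.

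**Figure D4:**
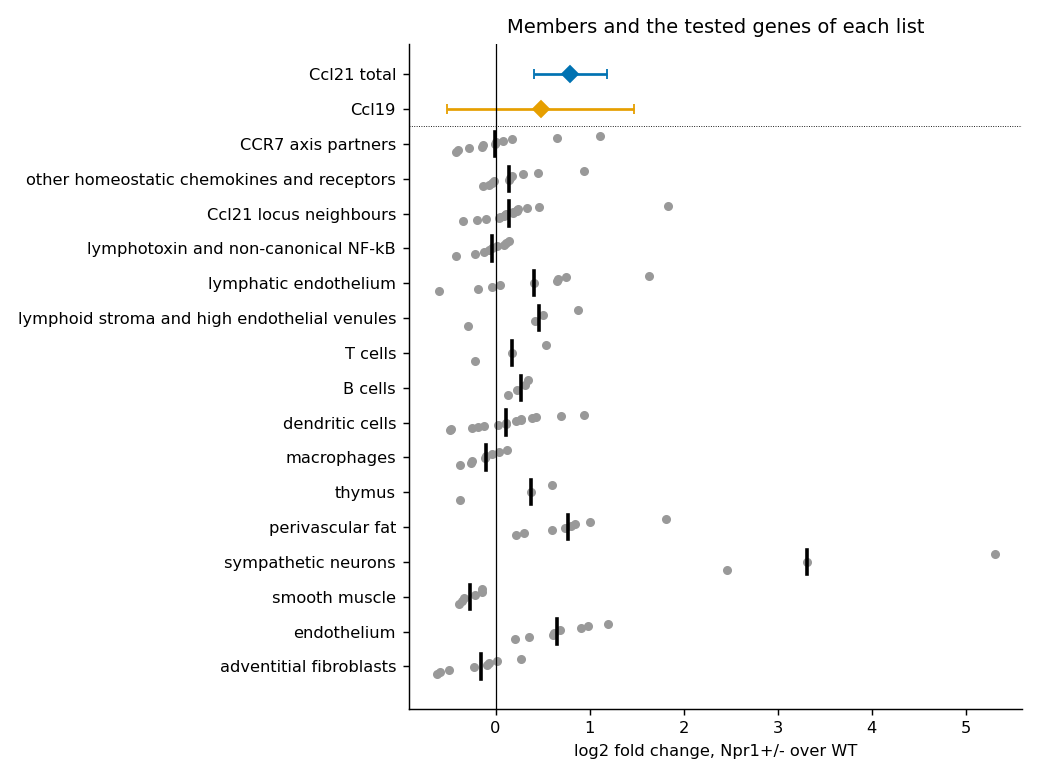
Log2 fold changes of Npr1+/- over WT from the edgeR fit, for the Ccl21 total and Ccl19 (diamonds, with their standard errors) and for the tested genes of each list (grey points; black bars are list medians). The Ccl21 total is at 0.79, near the medians of perivascular fat (0.77) and endothelium (0.65), while the CCR7 partners center on -0.01.

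The genes whose level over the 6 libraries was most like that of the Ccl21 total were sought among the other 13932 genes, by the root mean square distance of their log2 CPM, each centred on its own mean. The Ccl21 total itself varied by 0.68 about its mean on this scale, and 20 genes were within 0.25 of it. The 8 nearest, from 0.13 to 0.21, were Pglyrp1, Zfp820, Pappa2, Il31ra, Ffar2, Il18, Penk and Erich5. Except for Penk, the gene of an opioid peptide precursor, all were low, at most 3.17 FPKM in any library. Pglyrp1, a peptidoglycan binding protein of neutrophils and the nearest of all, was at 1.13, 0.77 and 0.27 FPKM in WT libraries, against 1.79, 1.24 and 1.49 in Npr1+/- libraries. Penk was at 14.9, 12.3 and 6.31 FPKM in WT and at 20.1, 14.4 and 13.0 in Npr1+/- aortas. Each of the 8 was lowest in WT 3 and highest in Npr1+/- 1, as the Ccl21 total was. The row of Ccl19 alone was at rank 13834 of 13932, with a distance of 1.37. A distance of this kind grows with a row's own spread. The sum of Ccl19 and Gm2023, which varied much less between libraries, was not ranked. With 6 libraries, many of 13932 genes can come near a given pattern, and the libraries share their depth and tissue makeup among all of these genes.

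**Figure D5:**
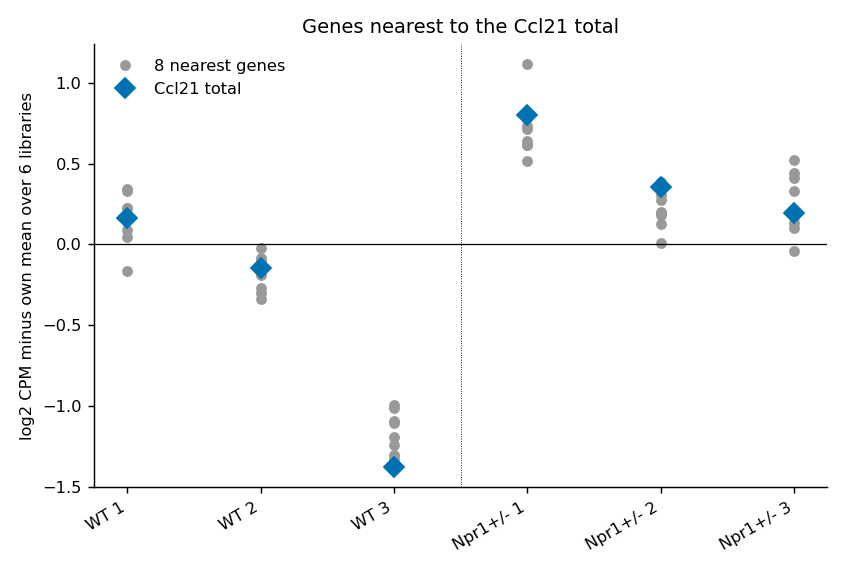
Log2 CPM minus the gene's own mean over the 6 libraries, for the Ccl21 total (blue diamonds) and the 8 genes nearest to it (grey points), with WT left and Npr1+/- right of the dotted line. In WT 3 all lie at or below -0.99 and in Npr1+/- 1 all lie above 0.5.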

How the data were processed

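RNA of whole mouse aortas was sequenced in 6 libraries, 3 labelled WT and 3 Npr1+/-, on a BGISEQ platform, with a kit not described as stranded. The authors filtered reads with SOAPnuke, aligned them to a set of coding genes with Bowtie2 and deposited RSEM's estimated counts and FPKM (scaled by transcript length and library size) for 18191 genes, of which 18070 were paired with a symbol. The build named in the submitters' notes is mm10, and the release of the gene set is not given in the sources used here. The authors' DESeq2 (1.4.5) called genes at q up to 0.05. The 4 columns of group means were not used. Values came from the libraries' columns.

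Estimated counts were rounded, the 6 Ccl21 copies were summed to 1 row, and edgeR 4.0.16 (R 4.3.3) was used with TMM, its filter at a minimum count of 10 and the quasi-likelihood test with p-values adjusted by Benjamini-Hochberg over 13933 genes. Calls needed an adjusted p under 0.05 and a log2 fold change of 0.5 or more in size. Standard errors given with edgeR were derived as the size of the log2 fold change over the square root of the F statistic. For the members they are given as a description, not as a test. Log2 CPM used a prior count of 2. Alternatives were DESeq2 1.42.0, its size factors, no filter, limma 3.58.1 on log2(FPKM + 0.1) or log2(FPKM + 1), the replicate block, separate rows, the identical Ccl21 rows counted once or left out, and each library left out. The tests were checked on simulated counts. The labels number the libraries and do not state whether each is 1 animal or a pool, so that p-values measure the spread between these samples. Counts set the precision by counting error only.

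The members and gene lists were chosen with earlier results of these data known. Named were the 8 members and Npr1, in each of the 16 lists the gene with the highest FPKM, those at an unadjusted p under 0.05 and up to 4 without overlap, and the 8 genes nearest in pattern to the Ccl21 total. Others were named after their values were seen, as stated. Deviations from the group means correlated at 0.64, 0.39 and 0.24 between same-numbered libraries of the 2 genotypes. The correlation was 0.44 between WT 3 and Npr1+/- 2, and 0.37 between WT 2 and Npr1+/- 3. This check sets the libraries numbered 1 apart, but it does not tell the numbers 2 and 3 apart. The pairing therefore rests on the labels' numbers. Sequences are from GENCODE M21 transcripts and RefSeq promoters on GRCm38, found for all copies except Ccl21c.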

Additional observations from a re-analysis of the deposited data

How the results depend on the processing

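With the copies summed, DESeq2 called 11 genes where edgeR called 0, of which 1 was a listed gene, Nos3. With the copies as separate rows DESeq2 called 16, and with the replicate block 262 genes, of which 14 were listed; both of these fits were chosen after the data were seen. edgeR called 0 genes under each of its alternatives, with each library left out in turn, with limma on FPKM and at an adjusted p under 0.1. A single one of the identical rows gave a lower bound of 3.32 on the log2 scale in place of the total's 0.79. That bound holds for the row's estimated counts and leaves out the division of reads among copies.

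With the replicate block the log2 fold change of the Ccl21 total was 0.89 (standard error 0.21) and that of Ccl19 was 0.45, and the block changed no call of edgeR, while 1719 genes in place of 418 had an unadjusted p under 0.05. It was 0.63 with the identical rows counted once and 0.57 for Ccl21a and Ccl21b alone, and the groups overlapped in both. Under the other alternatives with all libraries the Ccl21 total lay between 0.78 and 0.90, and without single libraries between 0.46 and 1.10. Ccl19 ranged from -0.03 to 1.03 and Ccr7 from -0.70 to 0.61 with each library left out, and Ccr7 was -0.11 with DESeq2, so that neither gene kept a direction. Counts of 0 to 9 limit Ccr7, and the division of reads among copies limits each Ccl21 row and the Ccl19 row.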
